A study of Mus musculus with 9 samples.

Results

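Kinesins are motor proteins that walk along microtubules or shorten them, and the mitotic kinesins are the members of this superfamily that work on the spindle. The 10 genes described here, Kif11, Kif14, Kif15, Kif18a, Kif18b, Kif20a, Kif20b, Kif22, Kif23 and Kif2c, were chosen by name and matched by symbol to the 57010 Ensembl genes of the count table, and the question asked of them was whether a higher level of Kif18a in the mutants was shared by the rest of the family. All 10 had more than 10 reads in every embryo and were among the 13680 genes tested. Kif18a itself had been singled out on these same embryos, so its own level is a description and not an independent test.

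RNA was sequenced from the cerebral cortex of single mouse embryos at E12.5, with 3 embryos for each of 3 genotypes. The Ctrl embryos carry the genotype label WT. In the cKO embryos both copies of Cnot3 are floxed and are deleted by Emx1-Cre, and the dcKO embryos carry floxed Cnot3 together with floxed Trp53, the gene of p53, under the same Cre. Emx1-Cre is active in radial glial cells (RGCs) of the dorsal telencephalon and in the cells they give rise to, and it is not active in blood vessels, blood, meninges or microglia of the dissected tissue. CNOT3 is a subunit of the CCR4-NOT complex, which removes the poly(A) tails of mRNAs and so starts their decay. In such bulk samples, fewer cells of a type and less RNA per cell cannot be told apart.

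Dividing RGCs line the ventricle and rely on these motors to separate their chromosomes. KIF11 slides antiparallel microtubules apart and makes the spindle bipolar, with KIF15 as a partial backup. KIF18A dampens the movements of chromosomes that are aligning at the spindle equator, KIF18B and KIF2C shorten microtubules from their ends, and KIF22 binds chromosome arms and pushes them outwards. KIF23, KIF20A, KIF20B and KIF14 act late, at the central spindle and the midbody, where the daughter cells are cut apart.

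Expression of many mitotic genes is restricted to G2 and M phase through a promoter element called the cell cycle genes homology region, whose common core is TTTGAA. The core was searched for on both strands (TTTGAA or TTCAAA) in the 300 bases that RefSeq gives around each start (250 before and 50 after, GRCm38.p6). Promoters of 9 members were searched, that of Kif20a being the one not used here. The core was present in 8 of the 9, against 17.9% of all 32851 promoters and 11.8% of the 12649 promoters of tested genes, and within 50 bases of the start in 6 of the 9, against 4.94% of all promoters and 3.11% of those of tested genes. The 28 bases around the match nearest to the start are printed for these 6 members, with the core in capitals, because in them the core lies closest to the start. Positions count from +1 at the start.
Kif11 (chr19:37376352-37376379, plus strand, core at -19): cgtctccatttTTCAAAattgaggcgcg
Kif15 (chr9:122951051-122951078, plus strand, core at -19): ggggcgccaaaTTCAAAtctgcggccat
Kif18b (chr11:102925105-102925132, minus strand, core at 4): ggaccggctagTTTGAAcgcgccgcgcc
Kif20b (chr19:34922354-34922381, plus strand, cores at 8 and 14): agccgccattgTTTGAATTTGAAaaccg
Kif22 (chr7:127042421-127042448, minus strand, core at -17): ggccccggtaaTTCAAAagagagaagcg
Kif23 (chr9:61946781-61946808, minus strand, core at 3): tgattggcctgTTTGAAatgcgccgggc

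In Kif14 the only match lay at -228 and in Kif2c at -103, and for both genes the RefSeq start lay inside the GENCODE gene rather than at its outer end. The 300 bases around the Kif18a start held neither the core nor a CCAAT box (CCAAT or ATTGG), which says only that these letters are not in this window. CCAAT boxes, which often accompany the element, were found in 5 of the 9 members and in 37.4% of all promoters. The 100 bases before the start of Kif18a are printed because Kif18a was the one member without the core among the 9 searched.
Kif18a (chr2:109280638-109280737, plus strand): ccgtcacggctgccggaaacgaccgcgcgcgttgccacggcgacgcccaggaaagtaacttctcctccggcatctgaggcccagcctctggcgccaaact

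The members also differed in their codons. The share of codons that end in G or C (GC3) was computed for the longest coding isoform of each gene in GENCODE M21. Kif18a had the lowest GC3 of the family, 35.0%, at percentile 2.09 of the 12083 tested coding genes, and was followed by Kif20b at 37.5%, Kif11 at 39.9%, Kif15 at 44.6%, Kif23 at 48.0% and Kif14 at 48.9%. Kif20a (56.4%), Kif22 (58.9%) and Kif2c (59.2%) lay near the middle of all genes, and Kif18b had the highest value at 66.5%. The first 30 codons of the members at the 2 ends of this order are printed with each G or C at the end of a codon in capitals, which made up 14 of the 30 in Kif18a, 10 in Kif20b and 22 in Kif18b.
Kif18a: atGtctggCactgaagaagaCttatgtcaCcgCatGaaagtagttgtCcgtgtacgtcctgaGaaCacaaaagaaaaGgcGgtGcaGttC
Kif20b: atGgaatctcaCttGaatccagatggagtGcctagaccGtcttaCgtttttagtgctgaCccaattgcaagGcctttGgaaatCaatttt
Kif18b: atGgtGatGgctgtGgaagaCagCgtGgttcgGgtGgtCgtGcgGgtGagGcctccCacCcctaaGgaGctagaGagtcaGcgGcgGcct

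Total counts ran from 21193798 to 45073349 reads per embryo. Cnot3 was lower in both mutants: it was at 98.2 to 117 CPM (counts scaled to library size with TMM factors) in Ctrl, 14.6 to 17.3 in cKO and 7.33, 48.2 and 19.0 in dcKO replicates 1, 2 and 3. Trp53 was at 215 to 254 CPM in Ctrl, 164 to 167 in cKO and 15.1, 110 and 20.6 in the 3 dcKO embryos, so that dcKO replicate 2 kept most of both targeted transcripts among the dcKO embryos. The dcKO embryos also differed most from each other, with a mean chi-square per gene of 185 to 507 between pairs, against 15.6 to 53.8 between pairs of the same genotype in Ctrl and cKO. This measure grows with read depth. The 9 RGC markers summed to 2968 to 3395 CPM in Ctrl, 2905 to 3413 in cKO and 3079 to 3454 in dcKO, and these ranges overlapped. So did those of the 5 intermediate progenitor markers (391 to 509, 354 to 433 and 333 to 666 CPM) and of the 8 neuronal markers (1406 to 1835, 1064 to 1503 and 903 to 1775 CPM). The dcKO embryos were all lower than the Ctrl embryos in the summed markers of endothelium (113 to 125 against 193 to 249 CPM), microglia (11.3 to 24.7 against 28.1 to 35.0), erythroid cells (4712 to 6451 against 7119 to 10403) and Cajal-Retzius cells (69.8 to 99.1 against 109 to 139), while the cKO ranges of these 4 lists overlapped Ctrl. Meningeal markers were lower in both mutants (780 to 858 CPM in Ctrl, 452 to 694 in cKO, 324 to 518 in dcKO). Markers of choroid plexus and hem were higher in both (15.8 to 34.5, 52.6 to 181 and 61.3 to 199 CPM), as were those of subpallium (1.09 to 1.51, 2.07 to 4.54 and 1.78 to 8.66 CPM), whose defining genes Dlx1, Dlx2, Dlx5, Gsx2 and Gad2 had 0 reads in some embryos. Of the 5 choroid plexus and hem markers, 2 passed the filter on reads, and Ttr had 0 reads in some embryos. The part of these cell types in the values below was not tested.

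In Ctrl cortex the members spanned a wide range of abundance once reads were divided by mRNA length (CPM per kb of the longest coding isoform). Kif22 was the most abundant at 89.8 ± 2.22 (SD, n = 3), and Kif11 (50.5 ± 2.50), Kif2c (47.3 ± 0.481) and Kif20a (40.0 ± 6.28) formed a second tier in which neighbours overlapped. Kif23 (28.3 ± 2.30) and Kif15 (26.3 ± 2.21) also overlapped, and below them Kif18b (21.2 ± 1.54), Kif18a (11.1 ± 1.07), Kif20b (7.17 ± 0.756) and Kif14 (4.45 ± 0.769) did not. Kif18a thus stood eighth of the 10 in Ctrl. In cKO it was at 23.1 ± 1.03 CPM per kb and its range overlapped that of Kif18b (25.4 ± 3.81), and in dcKO it was at 27.6 ± 8.09, with ranges that overlapped those of both Kif23 and Kif18b.

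**Figure D1:**
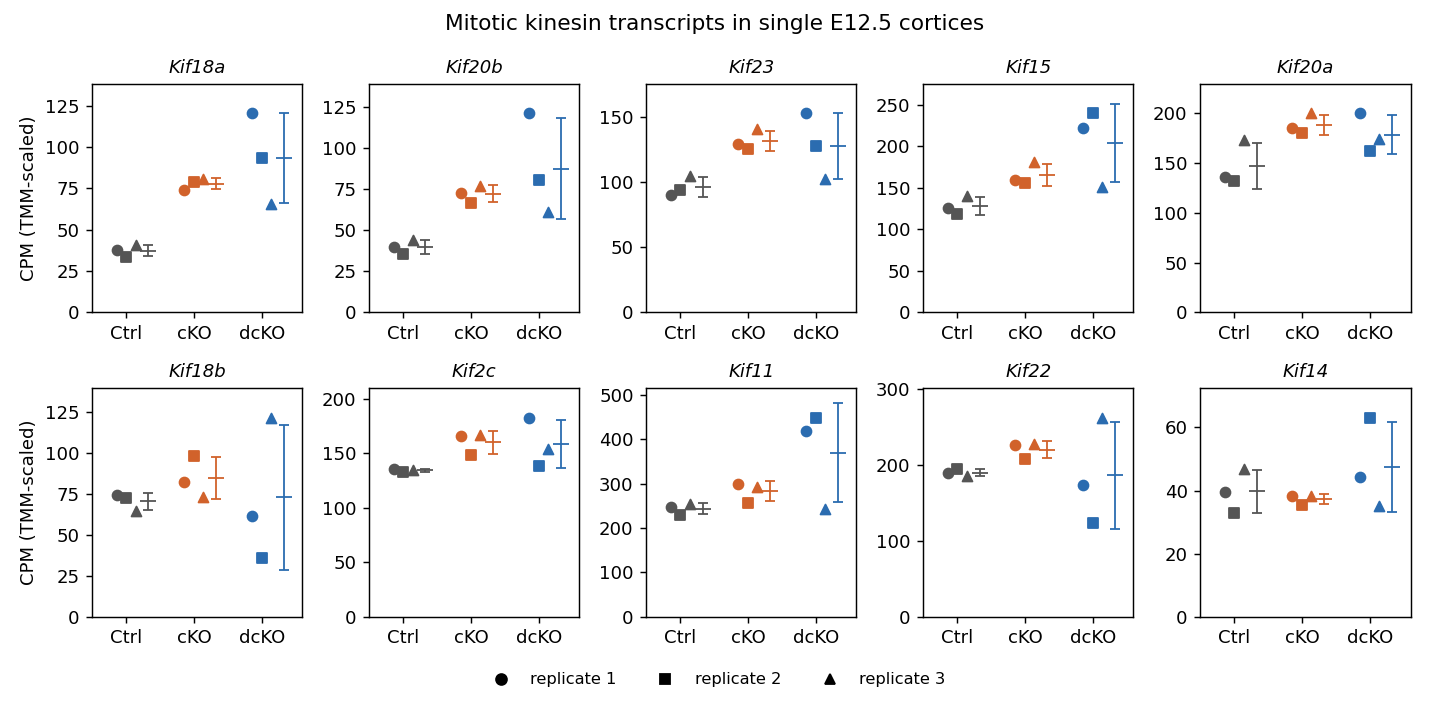
Abundance of the 10 mitotic kinesin transcripts in each embryo, in TMM-scaled CPM on a linear axis from 0, with 3 Ctrl, 3 cKO and 3 dcKO embryos (symbol: replicate number, bar: mean ± SD). Kif18a and Kif20b in every mutant embryo lay above every Ctrl embryo, and the 3 dcKO embryos ran from 35.5 to 121 CPM in Kif18b and from 242 to 449 CPM in Kif11.

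Kif18a (ENSMUSG00000027115.15, chr2:109280738-109341747 in GENCODE M21, GRCm38, plus strand) was at 37.9, 33.5 and 40.7 CPM in Ctrl replicates 1 to 3, at 73.9, 78.7 and 80.7 in the cKO embryos and at 120, 93.3 and 65.7 in the dcKO embryos. Every mutant embryo was above every Ctrl embryo, and dcKO replicate 3 was the lowest of the 6 mutants. The level in cKO was 2.08 times that in Ctrl (log2 fold change 1.06 ± 0.22 SE, 95% interval 0.57 to 1.54, edgeR adjusted p = 0.0509), and in dcKO it was 2.49 times that in Ctrl (1.32 ± 0.22, interval 0.83 to 1.80, edgeR adjusted p = 0.0502). Both adjusted p-values missed the threshold of 0.05 in the edgeR quasi-likelihood test over all 9 embryos. DESeq2 gave nearly the same sizes, 1.04 ± 0.25 and 1.29 ± 0.25, with adjusted p = 0.00137 and 7.11e-05. Among all tested genes the Kif18a log2 fold change stood at percentile 93.7 in cKO and 96.8 in dcKO. Leaving any of the 3 dcKO embryos out of the edgeR fit brought the cKO comparison past the threshold, with adjusted p = 0.0135, 0.0139 and 0.0051 without dcKO replicates 1, 2 and 3, and the same fold change. In those fits 7.25%, 11.3% and 14.8% of all genes passed an adjusted p of 0.05 as higher in cKO. Leaving out a Ctrl or cKO embryo gave log2 fold changes from 0.98 to 1.12 with adjusted p from 0.13 to 0.211. The dcKO comparison passed without dcKO replicate 2 (adjusted p = 0.00863), where 12% of all genes were higher. It also passed without dcKO replicate 3 (log2 fold change 1.51, adjusted p = 0.000289), where 25.5% were higher. It did not pass without dcKO replicate 1 (1.09, adjusted p = 0.116) or without any Ctrl or cKO embryo (adjusted p from 0.0954 to 0.206).

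Kif20b (ENSMUSG00000024795.12, chr19:34922361-34975745, plus strand), a kinesin of the midbody, was the member nearest to Kif18a. It was at 39.6, 35.8 and 44.2 CPM in Ctrl, at 73.0, 66.7 and 77.3 in cKO and at 121, 80.9 and 61.0 in dcKO. No mutant embryo overlapped Ctrl, and the order of the dcKO embryos was that of Kif18a. The log2 fold change was 0.86 ± 0.24 in cKO (edgeR adjusted p = 0.0655, DESeq2 adjusted p = 0.0196) and 1.14 ± 0.24 in dcKO (edgeR adjusted p = 0.0502, DESeq2 adjusted p = 0.0018), a level 1.81 and 2.20 times that of Ctrl. In cKO the DESeq2 call was lost without any single Ctrl or cKO embryo (adjusted p from 0.0506 to 0.14) and 3 of 9 fits passed, and in edgeR also 3 of 9. In dcKO, 9 of 9 DESeq2 fits and 2 of 9 edgeR fits passed, with edgeR values from 0.83 to 1.34. Over the 9 embryos, log2 CPM of Kif20b and of Kif18a had a Pearson correlation of 0.98, a description over embryos that share genotypes and libraries.

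The 2 motors that build the bipolar spindle had larger values in dcKO than in cKO, a difference that did not pass the test. Kif11 (ENSMUSG00000012443.5, chr19:37376403-37421859, plus strand) was at 247, 230 and 253 CPM in Ctrl, at 299, 257 and 292 in cKO and at 419, 449 and 242 in dcKO. The cKO embryos lay just above Ctrl, and dcKO replicate 3 lay within the Ctrl range. Its log2 fold change was 0.22 ± 0.22 in cKO and 0.61 ± 0.22 in dcKO (edgeR adjusted p = 0.559 and 0.112, DESeq2 adjusted p = 0.634 and 0.0967). With each of the 9 embryos left out in turn, 1 edgeR fit passed in dcKO and 0 in cKO. The dcKO value was 0.84 without dcKO replicate 3 (edgeR adjusted p = 0.000605, in a fit where 25.5% of all genes were higher), 0.51 without replicate 1 (adjusted p = 0.31) and 0.44 without replicate 2 (adjusted p = 0.175).

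Kif15 (ENSMUSG00000036768.7, chr9:122951046-123018733, plus strand) was at 125, 119 and 140 CPM in Ctrl, at 160, 155 and 181 in cKO and at 221, 239 and 151 in dcKO. Neither mutant overlapped Ctrl, although dcKO replicate 3 was again the lowest of its group. Its log2 fold change was 0.37 ± 0.19 in cKO (edgeR adjusted p = 0.243, DESeq2 adjusted p = 0.284) and 0.67 ± 0.19 in dcKO (edgeR adjusted p = 0.0657, DESeq2 adjusted p = 0.0306). Of the 9 edgeR fits with an embryo left out, only that without dcKO replicate 3 passed, at 0.37 in cKO (adjusted p = 0.0375) and 0.85 in dcKO (adjusted p = 0.000666). In that fit 14.8% of all genes were higher in cKO and 25.5% in dcKO. The dcKO value was 0.61 without dcKO replicate 1 (adjusted p = 0.192) and 0.54 without replicate 2 (adjusted p = 0.0666), and the highest edgeR adjusted p of the 9 was 0.501 in cKO and 0.232 in dcKO.

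Of the cytokinesis kinesins other than Kif20b, Kif23 (ENSMUSG00000032254.11, chr9:61915905-61946774, minus strand), the motor of the centralspindlin complex, was at 89.8, 93.7 and 105 CPM in Ctrl, at 129, 125 and 140 in cKO and at 153, 127 and 102 in dcKO. The cKO embryos did not overlap Ctrl, while dcKO replicate 3 did. The log2 fold change was 0.45 ± 0.18 in cKO and 0.41 ± 0.18 in dcKO (edgeR adjusted p = 0.134 and 0.158, DESeq2 adjusted p = 0.123 and 0.183). Of the 9 edgeR fits with an embryo left out, only that without dcKO replicate 3 passed (adjusted p = 0.0196 in cKO and 0.00722 in dcKO). As for Kif15, 14.8% of all genes were higher in cKO and 25.5% in dcKO in that fit. The dcKO value of the 9 ran from 0.25 to 0.54, and the highest edgeR adjusted p was 0.358 in cKO and 0.425 in dcKO.

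Kif20a (ENSMUSG00000003779.17, chromosome 18), which brings the chromosomal passenger complex to the central spindle, was at 136, 132 and 174 CPM in Ctrl, at 186, 181 and 200 in cKO and at 200, 162 and 174 in dcKO. The cKO embryos lay above Ctrl and the dcKO embryos overlapped it. The log2 fold changes were 0.36 ± 0.17 and 0.28 ± 0.17 (edgeR adjusted p = 0.193 and 0.281). Kif20a shares 1271 exon bases with Cdc23 on the opposite strand, and since the strand setting of the counting is not given in the sources used here, its reads cannot be separated with certainty from those of Cdc23, which had 3467 to 9098 reads per embryo. Kif14 (ENSMUSG00000041498.14, chr1:136466343-136531511, plus strand), a midbody motor, was the one member with a value below 0 in cKO. It was at 39.7, 32.9 and 46.7 CPM in Ctrl, at 38.1, 35.5 and 38.4 in cKO and at 44.3, 63.1 and 34.9 in dcKO, so that all 3 groups overlapped (-0.09 ± 0.24 in cKO and 0.26 ± 0.24 in dcKO). With one embryo left out, the cKO value in edgeR lay between -0.21 and 0.041 and the dcKO value between -0.0055 and 0.43.

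The last group holds motors that shorten microtubules and the motor of chromosome arms. Kif2c (ENSMUSG00000028678.14, chr4:117159639-117182639, minus strand), the depolymerase of kinetochores and centromeres, was at 136, 133 and 134 CPM in Ctrl, at 166, 148 and 166 in cKO and at 182, 139 and 154 in dcKO. Neither mutant overlapped the narrow Ctrl range, yet its log2 fold changes were only 0.25 ± 0.15 and 0.24 ± 0.15 (edgeR adjusted p = 0.318 and 0.322). The dcKO value was 0.12 in edgeR and 0.090 in DESeq2 without dcKO replicate 1, and 0.32 in edgeR without dcKO replicate 2.

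Kif22 (ENSMUSG00000030677.9, chr7:127027729-127042471, minus strand) was at 189, 195 and 186 CPM in Ctrl, at 226, 208 and 227 in cKO and at 174, 123 and 263 in dcKO. Kif18b (ENSMUSG00000051378.11, chr11:102905529-102925124, minus strand), the closest relative of Kif18a in the family, was at 74.4, 72.1 and 64.6 CPM in Ctrl, at 82.1, 98.1 and 73.1 in cKO and at 61.4, 35.5 and 121 in dcKO. In both genes dcKO replicates 1 and 2 lay below every Ctrl embryo and dcKO replicate 3 above them all, the opposite of their order in Kif11 and Kif15. The log2 fold changes of Kif22 were 0.21 ± 0.24 in cKO and -0.03 ± 0.24 in dcKO, and those of Kif18b 0.26 ± 0.36 and 0.05 ± 0.36 (edgeR adjusted p from 0.594 to 0.948 for these 4 values). With one embryo left out, the cKO value of Kif18b ran from 0.14 to 0.35 in edgeR and from 0.13 to 0.34 in DESeq2. The dcKO values rested on single embryos. Without dcKO replicate 3, Kif18b was at -0.54 in edgeR (adjusted p = 0.0651) and -0.56 in DESeq2 (adjusted p = 0.0412), and Kif22 at -0.36 (edgeR adjusted p = 0.0761). In those fits 49.2% of all genes passed an adjusted p of 0.05 in either direction by edgeR, and 52.7% by DESeq2. Without dcKO replicate 2, Kif18b was at 0.38 and Kif22 at 0.20 in edgeR. Over the 9 embryos, log2 CPM of Kif18b and Kif22 had a Pearson correlation of 0.94 with each other, but of -0.20 and -0.17 with Kif18a, again a description of embryos that share libraries.

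**Figure D2:**
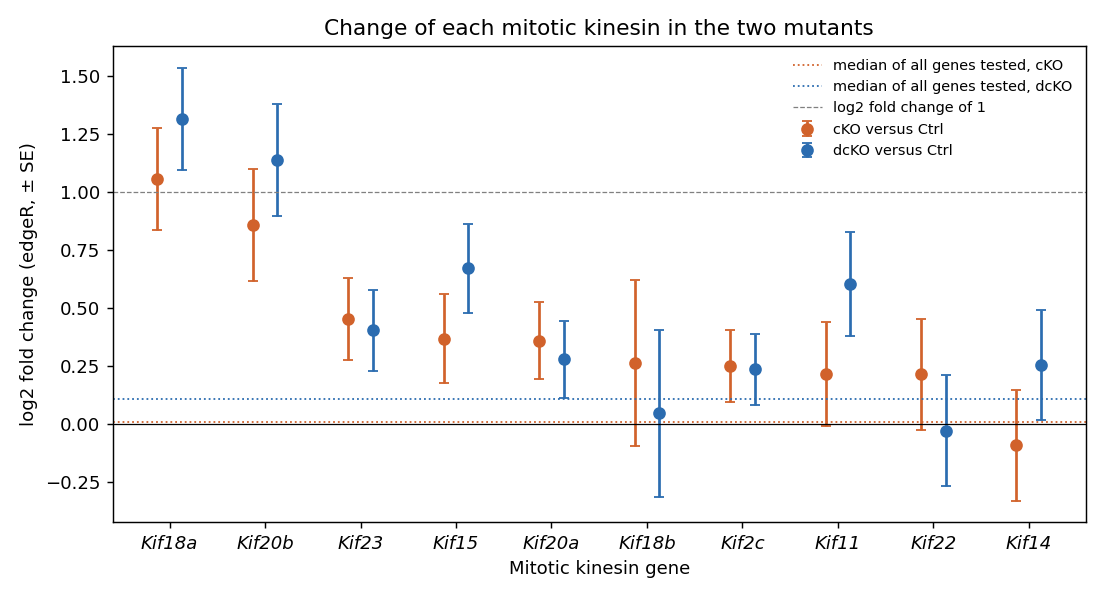
Log2 fold change (edgeR, ± SE) of each of the 10 mitotic kinesins in cKO and dcKO against the same 3 Ctrl embryos, ordered by the cKO value, with the median of all 13680 tested genes as dotted lines. Kif18a and Kif20b stand apart at 0.86 to 1.32, and the other members lie between -0.09 and 0.67.

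Counted by threshold, the family result depended on the test. With adjusted p under 0.05 and an absolute log2 fold change over 1, edgeR called 0 of the 10 members in cKO against Ctrl, as it called 0.0146% of all genes, and 0 in dcKO against Ctrl, as it called 0% of all genes. At an unadjusted p under 0.05, edgeR had 3 members higher in cKO (Kif18a, Kif20b and Kif23), where 15.3% of all genes were higher by that rule, and 5 in dcKO (those 3 with Kif11 and Kif15), where 18% were. With the same 2 thresholds, DESeq2 called Kif18a in cKO, against 4.94% of all genes called higher, and Kif18a and Kif20b in dcKO, against 4.66%. Without the limit on fold change, DESeq2 had 2 members higher in cKO (Kif18a and Kif20b, against 9.6% of all genes) and 3 in dcKO (Kif15 as well, against 10.3%). Kif15 kept that DESeq2 call in 1 of 9 fits with an embryo left out, the one without dcKO replicate 3 (adjusted p = 8.69e-08), and had adjusted p from 0.0621 to 0.185 in the others. In the fit without dcKO replicate 3, 26.7% of all genes were higher in dcKO by that rule. Kif20b kept its cKO call in the 3 fits without a dcKO embryo. limma voom with sample weights called the same members as DESeq2 at the 2 thresholds, against 7% of all genes higher in cKO and 10.9% in dcKO. Without the limit on fold change it had 8 members higher in cKO (all but Kif14 and Kif18b), against 27.6% of all genes, and 7 in dcKO (all but Kif14, Kif18b and Kif22), against 26.5%. At an unadjusted p under 0.05, edgeR had 0 members lower in cKO, against 11.7% of all genes, and 0 in dcKO, against 11.2%, shares at which few of 10 genes would be lower.

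In 8 of the 10 members every cKO embryo lay above every Ctrl embryo, the exceptions being Kif14 and Kif18b, against 29.2% of all genes. In dcKO this held for 4 members, Kif15, Kif18a, Kif20b and Kif2c, against 15.6% of all genes. For each such gene an exact two-sided permutation test gives p = 0.1, the smallest that 3 embryos against 3 allow. When edgeR was fitted to the 3 Ctrl and 3 cKO embryos alone, without the spread of the dcKO group, 7 members passed an adjusted p of 0.05 as higher (Kif15, Kif18a, Kif20a, Kif20b, Kif22, Kif23 and Kif2c), against 24% of all genes. Of these, Kif18a alone also passed the limit on fold change (1.06 ± 0.10, edgeR adjusted p = 5.92e-05), as 6.91% of all genes did as higher, so that 1 of 10 is near the background. In the matching fit of Ctrl and dcKO embryos 0 members passed (edgeR adjusted p of 0.2 for Kif18a), and 0% of all genes were higher by that rule.

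The 9 members other than Kif18a had a median log2 fold change of 0.26 in cKO and 0.28 in dcKO, with 8 of the 9 above 0 in each, beside medians of 0.01 and 0.11 over all 13680 tested genes, of which 6933 and 7780 were above 0. The dcKO median was 0.43 without dcKO replicate 3, 0.42 without Ctrl replicate 3, 0.47 with limma voom, 0.19 with no filter on reads and 0.14 under a correction for mRNA GC content. Both comparisons share the 3 Ctrl embryos.

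The share of Kif18a within the family did not depend on the scaling of the libraries. Kif18a made up 3.40%, 3.11% and 3.43% of the reads of the 10 members in Ctrl replicates 1 to 3, 5.16%, 5.82% and 5.47% in the cKO embryos and 7.09%, 6.17% and 4.81% in the dcKO embryos. Every mutant embryo was above every Ctrl embryo, although the summed CPM of the family was itself higher in the mutants, at 1076 to 1187 in Ctrl, 1353 to 1476 in cKO and 1368 to 1697 in dcKO. As a log2 ratio within each embryo, Kif18a was higher, with no overlap between groups, against each of the 9 others in cKO and against 8 of the 9 in dcKO, the exception being Kif18b. Against the 13554 other tested genes with a symbol of their own, the same ratio was higher without overlap for 82.6% in cKO and 71.6% in dcKO, and since Kif18a was singled out as higher, the direction of these ratios is no separate finding. The change was smallest against Kif20b, where the log2 ratio of Kif18a to Kif20b was -0.06, -0.09 and -0.12 in Ctrl, 0.02, 0.24 and 0.06 in cKO and -0.01, 0.21 and 0.11 in dcKO, a mean change of 0.20 and 0.19. Against Kif14 the mean change was 1.14 in cKO and 1.05 in dcKO. Against Kif18b it was 0.81 in cKO, and in dcKO the ratios of 0.97, 1.39 and -0.88 in replicates 1, 2 and 3 set the last embryo inside the Ctrl range of -1.10 to -0.67.

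**Figure D3:**
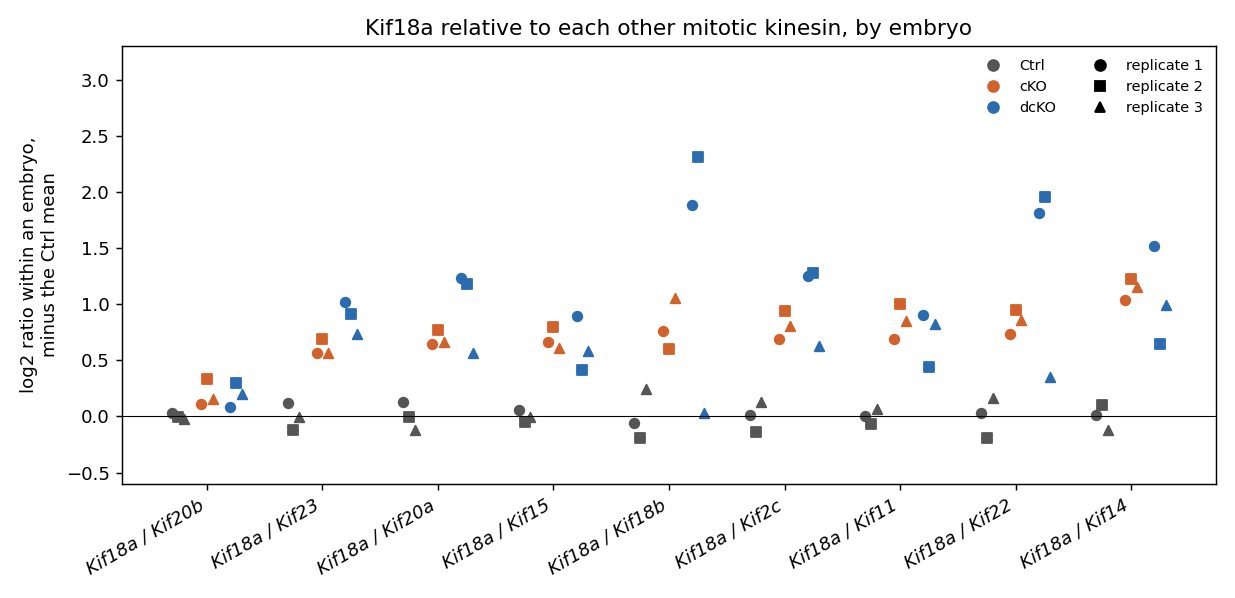
Log2 ratio of Kif18a reads to those of each other mitotic kinesin within an embryo, minus the mean of the 3 Ctrl embryos, for 3 Ctrl, 3 cKO and 3 dcKO embryos (symbol: replicate number). All cKO embryos lie above all Ctrl embryos in each of the 9 ratios, with the smallest change, 0.20, against Kif20b.

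Between the 2 mutants no member was called with all 9 embryos. Kif18a did not differ significantly between dcKO and cKO (log2 fold change 0.26 ± 0.22, 95% interval -0.22 to 0.74, edgeR adjusted p = 0.892), and the groups overlapped. edgeR and DESeq2 called 0 members at the 2 thresholds, against 0.0146% and 0.38% of all genes in either direction, and 0 members had an unadjusted p under 0.05 in edgeR, against 4.42% of all genes. Without dcKO replicate 3, 26.6% of all genes and 5 of the 10 members passed an edgeR adjusted p of 0.05 without a limit on fold change. These were Kif11 (0.62), Kif15 (0.48) and Kif18a (0.46, adjusted p = 0.0455), higher in dcKO, and Kif18b (-0.80) and Kif22 (-0.57), lower. Without dcKO replicate 1 the Kif18a difference was 0.032 (edgeR adjusted p = 0.967), and under a correction for mRNA GC content its sign turned (-0.084, adjusted p = 0.924).

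The order of the members was close to that of their codon composition in dcKO and less so in cKO. Across the 10 members, the log2 fold change had a Spearman correlation with GC3 of -0.58 in cKO and -0.94 in dcKO, a description over genes that share the same 9 libraries. In cKO, Kif11, with the third lowest GC3, was at 0.22 and Kif18b, with the highest, at 0.26. Across the 12083 tested coding genes the correlation was -0.34 in cKO and -0.53 in dcKO, so the relation was not particular to kinesins. The lowest of 10 equal bins of genes by GC3 (1211 genes with GC3 up to 42.9%), which holds Kif18a, Kif20b and Kif11, had a median log2 fold change of 0.24 in cKO and 0.58 in dcKO. Kif11 lay close to those medians, at 0.22 and 0.61. Kif18a (1.06 and 1.32) and Kif20b (0.86 and 1.14) lay above the upper quartile of the bin, which was 0.54 in cKO and 0.78 in dcKO. Kif18b, in the eighth bin, had 0.26 and 0.05 beside bin medians of -0.16 and -0.26.

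**Figure D4:**
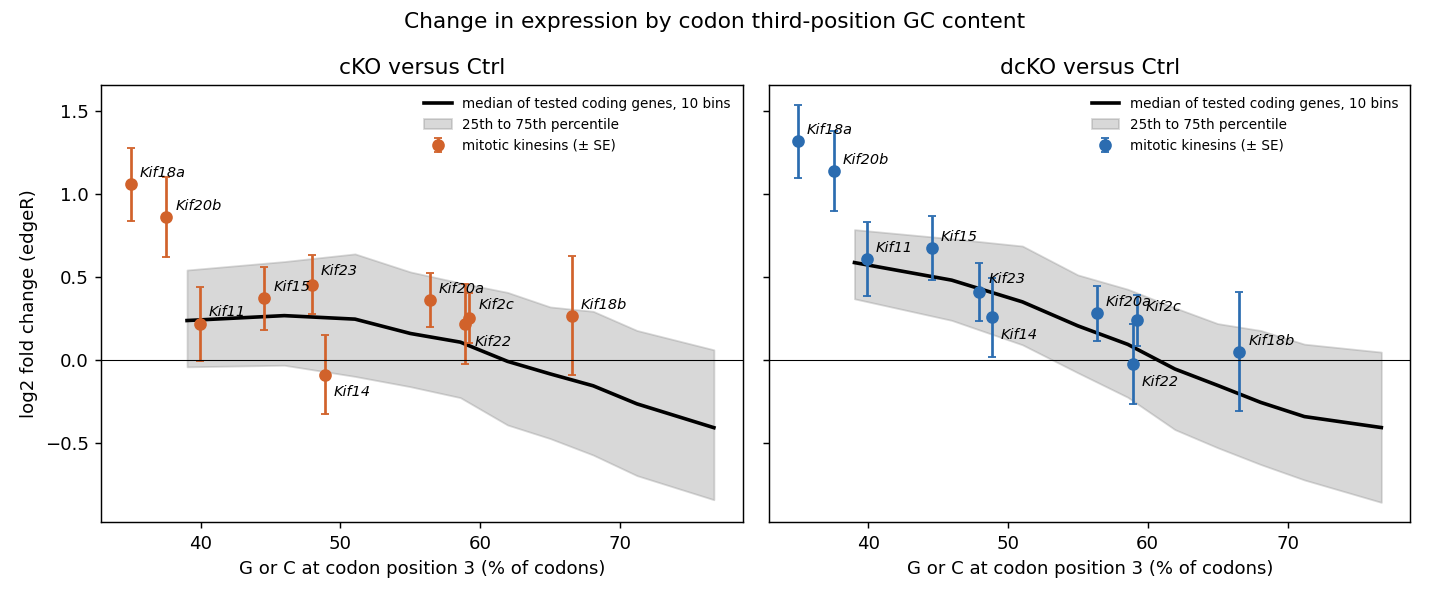
Log2 fold change (edgeR) of the 10 mitotic kinesins (± SE) against the percent of codons ending in G or C, in cKO (left) and dcKO (right) versus Ctrl, with the median and the 25th to 75th percentile of 12083 tested coding genes in 10 bins. Kif18a (35.0%) and Kif20b (37.5%) lie above the upper quartile of their bin in both panels, and Kif11 (39.9%) lies at its median.

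The GC3 trend differed between embryos of the same genotype. The slope of an embryo's deviation from the mean of all 9, in log2 units per 10 points of GC3, was 0.21, 0.19 and 0.07 in the Ctrl embryos, -0.03, 0.04 and -0.06 in the cKO embryos and -0.29, -0.36 and 0.22 in dcKO replicates 1, 2 and 3. The dcKO embryo whose slope was positive, replicate 3, was the one with Ctrl-like Kif11 and the highest Kif18b and Kif22, and it still had 65.7 CPM of Kif18a and 61.0 CPM of Kif20b, above every Ctrl embryo. The counts of each embryo were also corrected for the GC content of the mRNAs. The log2 fold change of Kif18a was then 0.86 in cKO (edgeR adjusted p = 0.0284), where 5.79% of all genes passed as higher. In dcKO it was 0.78 (edgeR adjusted p = 0.0497), where 1.88% did. With a replicate block added to the correction both missed the threshold (0.87 and 0.76, edgeR adjusted p = 0.0595 and 0.104). That of Kif20b was 0.65 and 0.62 (edgeR adjusted p = 0.0544 and 0.0894), and the median of the 9 members other than Kif18a was 0.18 and 0.14. Under this correction Kif11 was at -0.04 in cKO and 0.10 in dcKO. How far the trend reflects the libraries and how far the genotype cannot be told apart with 3 embryos a group.

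Genes that work with the mitotic kinesins were taken from lists and counted in the same fits, with higher and lower meaning DESeq2 adjusted p under 0.05 without a limit on fold change. edgeR called none of the listed genes in either mutant, and its counts at an unadjusted p under 0.05 are given in brackets. Of all tested genes, DESeq2 had 9.6% higher and 7.07% lower in cKO and 10.3% higher and 7.4% lower in dcKO. edgeR had 15.3% higher and 11.7% lower in cKO and 18% higher and 11.2% lower in dcKO at the unadjusted p. Lists of this size give few calls at such shares, so each count is a description, and nothing particular to a list is read from it. The lists were not matched for GC3, and the part of the GC3 trend of all genes in their values was not tested. Of 6 other spindle kinesins tested, 0 were higher and 1 lower in cKO (edgeR 0 and 1), and 0 and 1 in dcKO (edgeR 2 and 1), where 9.6% and 7.07% of all genes in cKO and 10.3% and 7.4% in dcKO were. Kif4, the chromokinesin partner of the central spindle, was at 0.14 ± 0.19 in cKO and 0.37 ± 0.19 in dcKO, and Cenpe, which carries chromosomes to the equator, at 0.27 ± 0.23 and 0.61 ± 0.23. Kif2a, the depolymerase of spindle poles, was at 0.34 ± 0.22 and 0.60 ± 0.22, and Kif24 at -0.02 ± 0.20 and 0.02 ± 0.20. The lower gene, Kifc5b (-0.94 ± 0.33 in cKO and -1.06 ± 0.33 in dcKO, DESeq2 adjusted p = 0.0376 and 0.0161), is a near-identical copy of Kifc1 (-0.72 ± 0.48 and -0.86 ± 0.48), so the split of reads between the pair is uncertain. Kif2b, also listed, did not pass the filter on reads. The GC3 of the 6 tested was 48.5% in Kif4, 44.3% in Cenpe, 37.6% in Kif2a, 51.0% in Kif24, 62.8% in Kifc5b and 62.3% in Kifc1.

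Of 10 partners of the kinesins in the central spindle and cytokinesis, 0 were higher and 1 lower in cKO (edgeR 2 and 1), and 2 were higher and 1 lower in dcKO (edgeR 3 and 1), beside the shares of all genes given above. The higher genes in dcKO were Ect2, the RhoA activator recruited by centralspindlin (0.51 ± 0.19 in cKO, 0.69 ± 0.19 in dcKO), and Prc1, the microtubule bundler that recruits KIF4 and KIF14 to the midzone (0.51 ± 0.19 and 0.61 ± 0.19). Cit, the citron kinase that binds KIF14 at the midbody, was lower in both mutants (-1.28 ± 0.35 and -1.28 ± 0.35, DESeq2 adjusted p = 0.00687 and 0.00653), and Birc5, survivin, was at -0.32 ± 0.20 and -0.04 ± 0.20. The list medians were -0.12 and -0.09, beside 0.26 and 0.28 for the 9 kinesins other than Kif18a. Ect2 had a GC3 of 42.2%, Prc1 50.5%, Cit 71.9% and Birc5 70.0%.

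Of 20 genes of spindle assembly and the kinetochore, 3 were higher and 0 lower in cKO (edgeR 5 and 0), and 5 were higher and 0 lower in dcKO (edgeR 8 and 1), beside 9.6% and 10.3% of all genes higher by DESeq2 and 15.3% and 18% by edgeR. Ska3, of the complex that tethers kinetochores to microtubule ends, was at 0.71 ± 0.20 and 0.75 ± 0.20, and Hmmr, a spindle microtubule binding protein, at 0.66 ± 0.21 and 0.77 ± 0.21. Numa1, which anchors microtubules at the poles, was at -0.60 ± 0.28 and -0.63 ± 0.28, and Ska2 at -0.50 ± 0.34 and 0.23 ± 0.33. The list medians were 0.22 in cKO and 0.54 in dcKO, beside 0.26 and 0.28 for the 9 kinesins other than Kif18a. Ska3 had a GC3 of 42.3%, Hmmr 42.2%, Numa1 62.9% and Ska2 40.0%.

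Of 12 cyclins and other markers of G2 and M phase, 1 was higher and 0 lower in cKO (edgeR 1 and 0), and 1 was higher and 0 lower in dcKO (edgeR 3 and 0), close to the 9.6% and 10.3% of all genes higher by DESeq2. Pttg1, securin, was at 0.91 ± 0.29 in cKO and 0.31 ± 0.28 in dcKO, and Ccnb1, cyclin B1, at 0.36 ± 0.18 and 0.45 ± 0.18. Ube2c (-0.04 ± 0.14 and -0.12 ± 0.14) and Cdc20 (0.05 ± 0.28 and -0.26 ± 0.28), of the machinery that degrades cyclin B, were the lowest in cKO. The list medians were 0.22 and 0.32, again beside 0.26 and 0.28 for the 9 kinesins. Pttg1 had a GC3 of 50.8%, Ccnb1 49.8%, Ube2c 67.0% and Cdc20 58.9%.

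Of 12 tested regulators that act on promoters of G2 and M genes, 0 were higher and 3 lower in cKO (edgeR 0 and 3), and 0 were higher and 4 lower in dcKO (edgeR 4 and 4), beside 7.07% and 7.4% of all genes lower by DESeq2. Foxm1, an activator of mitotic genes, was lower by DESeq2 in both (-0.73 ± 0.18 and -0.77 ± 0.18, adjusted p = 0.00448 and 0.00212), as was Mybl2, B-Myb (-0.78 ± 0.26 and -0.92 ± 0.26, adjusted p = 0.043 and 0.0134). Lin9, a core subunit of the MuvB complex that binds the TTTGAA element, was at 0.37 ± 0.24 and 0.67 ± 0.24, and Tfdp2 at 0.33 ± 0.19 and 0.45 ± 0.19. The list medians were -0.03 and 0.30, and Lin54 did not pass the filter on reads. Foxm1 had a GC3 of 62.6%, Mybl2 71.7%, Lin9 43.7% and Tfdp2 42.6%, and the part of the GC3 trend in these values was not tested. Among the 8 kinesins whose promoters held that core, Kif14 had the lowest log2 fold change in cKO (-0.09) and Kif20b the highest (0.86). The lowest of the 8 in dcKO was Kif22 (-0.03), and Kif20b was again the highest (1.14). Kif18a, without the core in the window searched, had been singled out as higher in these embryos. Any relation between the core, its regulators and the levels of the kinesins was not tested.

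**Figure D5:**
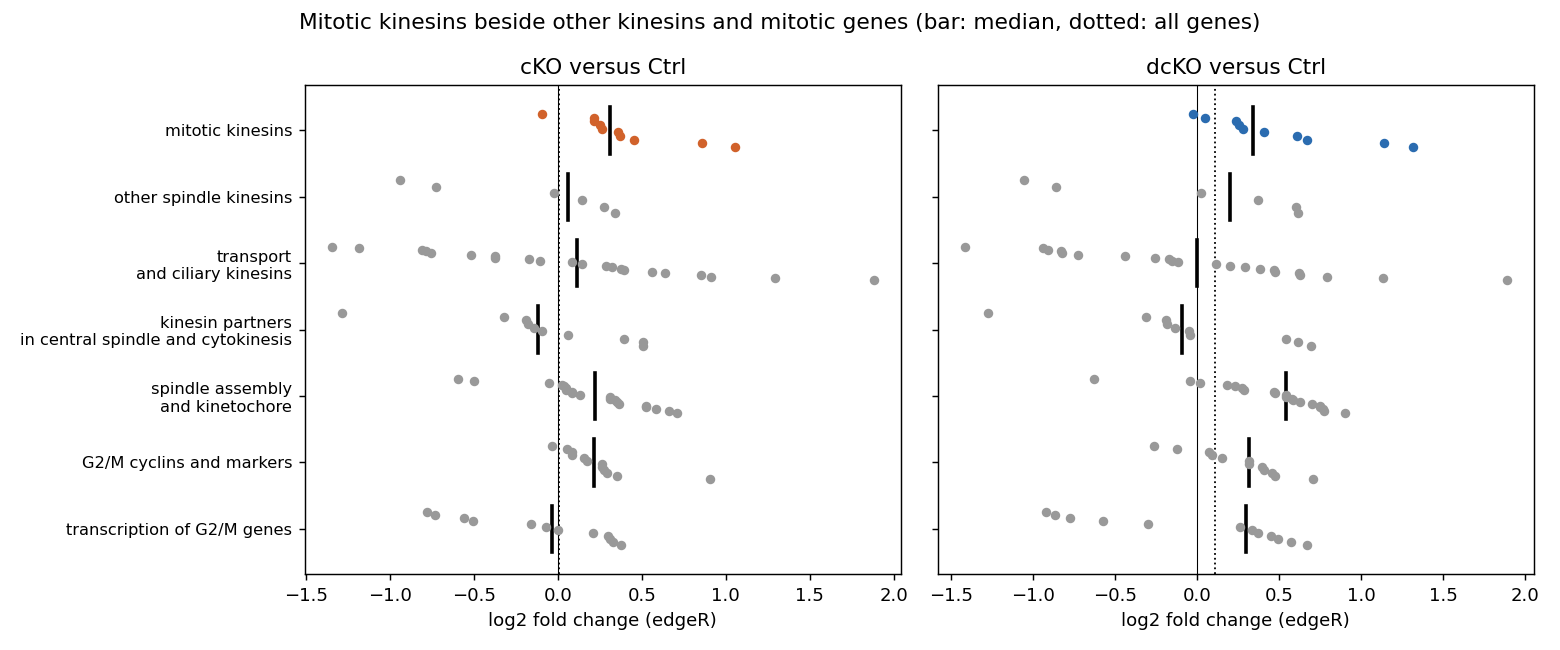
Log2 fold change (edgeR) of every tested gene in the mitotic kinesins and in 6 other lists, in cKO (left) and dcKO (right) versus Ctrl (black bar: list median, dotted line: median of all tested genes). The mitotic kinesins have a median of 0.31 in cKO and 0.34 in dcKO, and the transport and ciliary kinesins spread widely on both sides of 0.

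Among all tested genes other than members, those whose log2 CPM followed Kif18a most closely over the 9 embryos were Uhrf2, Trip4, Krcc1, Snx10 and Bmt2, with Pearson correlations from 0.992 to 0.994. Their log2 fold changes in cKO lay between 0.62 and 1.24. The genes that followed the mean of the 9 other members most closely were Mtr, Cops4, Iqgap2, Ankhd1 and Abcg2 (0.989 to 0.995), with cKO log2 fold changes between 0.41 and 0.92. No gene stood in both sets. These correlations are descriptions over 9 embryos of 3 genotypes.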

How the data were processed

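Libraries from cortical RNA of single embryos were made with a stranded poly(A) kit and sequenced as paired ends. The authors trimmed adapters with cutadapt, aligned reads with STAR to the mm39 build and assigned them to Ensembl genes with featureCounts (versions, annotation release and strand setting are not given in the sources used here). The deposited values are raw counts, 1 column per embryo, and 0 columns were left unmapped. Genotypes came from the labels. The 10 members, the gene lists and the marker lists were chosen with earlier results of these data known.

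Genes with more than 10 reads in each of the 9 embryos (13680 of 57010) were fitted in 1 model of the 3 genotypes, with no covariate, by the quasi-likelihood test of edgeR 4.0.16 with TMM factors in R 4.3.3. Adjusted p-values are Benjamini-Hochberg values over all tested genes, two-sided, and a call needed an adjusted p under 0.05 and an absolute log2 fold change over 1. DESeq2 1.42.0, limma 3.58.1 voom, other scalings and filters, fits of the 6 embryos compared, a correction for mRNA GC content (loess, span 0.3), a replicate block and each embryo left out were alternatives. DESeq2 on 6 embryos and with embryos left out was added after seeing the data. CPM values were scaled by TMM factors, and single genes were also tested by exact permutation (SciPy 1.17.1). The fits were tested on simulated counts with known fold changes.

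Total counts of 21193798 to 45073349 put 664 or more reads behind each member in each embryo. The replicates are separate embryos, with a mean chi-square per gene of 15.6 or more between pairs of the same genotype. That value sets embryos against counting noise alone and grows with read depth, so it only describes their spread.

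Gene coordinates and codons are from GENCODE M21 on GRCm38 and promoters from RefSeq on GRCm38.p6, neither of them the build of the alignment, and 9 of the 10 members matched the promoter table. Named genes were all members, Cnot3 and Trp53, every tested spindle kinesin outside the 10, the 2 highest and 2 lowest genes of each other list in cKO, and the 5 genes most correlated with Kif18a and with the mean of the other members. Proteins were not analysed here.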

Additional observations from a re-analysis of the deposited data

How the results depend on the processing

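With 3 embryos per genotype and a wide spread in dcKO, the calls depended on the tool more than the sizes did. The count of members called in cKO against Ctrl, 0 in edgeR, was 1 (Kif18a) with DESeq2 (4.94% of all genes called higher), limma voom with sample quality weights (7%), upper-quartile factors (2.42%), the 6 embryos compared (edgeR 6.91%, DESeq2 6.8%) or an adjusted p under 0.1 (4.6%), and 0 to 1 with one embryo left out. In dcKO against Ctrl it was 2 (Kif18a and Kif20b) with DESeq2 (4.66%), limma voom (10.9%), no filter (1.16%), DESeq2 on 6 embryos (2.82%) or an adjusted p under 0.1 (4.91%), and 0 to 2 with one embryo left out. In the edgeR fits without a Ctrl or cKO embryo, 0% of all genes were called higher in either mutant, and without a dcKO embryo 3.79% to 5.62% were in cKO and 0% to 8.46% in dcKO.

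Kif18a passed an adjusted p of 0.05 in cKO at 1.04 (DESeq2), 1.09 (limma voom), 1.16 (upper-quartile factors), 1.00 (no filter), 1.06 (edgeR, 6 embryos), 1.05 (DESeq2, 6 embryos) and 0.86 (GC correction), and with one embryo left out ran from 0.97 to 1.12. In dcKO it passed at 1.29 (DESeq2), 1.64 (limma voom), 1.22 (no filter), 1.28 (DESeq2, 6 embryos) and 0.78 (GC correction), and ran from 1.06 to 1.51 with one embryo left out. By that rule 5.79% of all genes were higher in cKO and 1.88% in dcKO under the GC correction. Between the mutants Kif18a ran from 0.012 to 0.46 with one embryo left out and turned to -0.084 under the GC correction and -0.11 with the replicate block added. The cause of these shifts was not tested.

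The median of the 9 other members in cKO was 0.37 with upper-quartile factors, 0.20 with no filter, 0.20 with filterByExpr, 0.18 with the GC correction and 0.19 with the GC correction and replicate block, and 0.24 to 0.31 with one embryo left out. In dcKO it was 0.47 with limma voom, 0.14 and 0.13 with the GC correction without and with the replicate block, and 0.20 to 0.43 with one embryo left out.

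Values near 0 changed sign. In cKO, Kif11 was at -0.044 under the GC correction, also with the block, and Kif14 at 0.018 with limma voom, 0.014 with upper-quartile factors and -0.22 to 0.041 with one embryo left out. In dcKO, Kif14 was at -0.066 and -0.070 under the GC correction without and with the block, and -0.041 to 0.43 with one embryo left out. Kif18b was at -0.22 with limma voom, -0.035 with no filter, -0.018 with filterByExpr, -0.043 with the replicate block and -0.56 to 0.38 with one embryo left out, where it reached an adjusted p of 0.0412 by DESeq2 without dcKO replicate 3. In that fit 52.7% of all genes passed in either direction. Kif22 was at 0.0034 with upper-quartile factors, 0.14 and 0.13 under the GC correction without and with the block, and -0.38 to 0.20 with one embryo left out.

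Same-numbered embryos of different genotypes had deviations from the genotype mean with a mean correlation of -0.17 (9 pairs). The other pairs had 0.08, a value tied to the first because deviations were centred within each genotype. The same-numbered embryo correlated best in 2 of 18 cases. No pairing by replicate number was seen, but this check cannot exclude one. With the replicate block edgeR still called 0 members, and Kif18a was at 1.06 in cKO (adjusted p = 0.128) and 1.30 in dcKO (adjusted p = 0.136). The description labels of 3 pairs of embryos share a number whose meaning the labels do not give: replicate 1 of Ctrl and 2 of cKO, replicate 2 of Ctrl and 3 of cKO, and replicate 3 of both Ctrl and dcKO. Their deviations had correlations of 0.19, -0.015 and -0.54, and Kif18a was higher in the mutant of each pair, by 1.05, 1.27 and 0.69 on the log2 scale. This check was added after seeing the data.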

Other observations

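The kinesins that carry cargo or work in cilia lay on both sides of Ctrl. Of 22 tested, 3 were higher and 3 lower in cKO by DESeq2 (adjusted p under 0.05), and 0 were higher and 4 lower in dcKO, where 9.6% and 7.07% of all genes in cKO and 10.3% and 7.4% in dcKO were. At an unadjusted p under 0.05, edgeR had 4 higher and 4 lower in cKO and 4 higher and 5 lower in dcKO (15.3% and 11.7%, and 18% and 11.2%, of all genes), and called none after adjustment. Kif21b, a motor of neuronal microtubules, was at -1.18 ± 0.34 in cKO and -1.42 ± 0.34 in dcKO (DESeq2 adjusted p = 0.0123 and 0.00212). Kif26a, a kinesin without motor activity, was at -1.35 ± 0.62 and -0.91 ± 0.62. Kif27, a relative of the Hedgehog pathway kinesin Kif7, was at 1.29 ± 0.43 and 1.13 ± 0.43 (DESeq2 adjusted p = 0.0302 and 0.0635), and Kif9, a kinesin of motile cilia, at 1.88 ± 0.89 and 1.88 ± 0.89 (0.114 and 0.108). Both were low, with means in Ctrl, cKO and dcKO of 2.79, 6.85 and 6.11 CPM for Kif27 and 1.09, 3.98 and 3.99 CPM for Kif9. The medians of the list were 0.12 in cKO and 0.00098 in dcKO, and Kif6, Kif12, Kif17 and Kifc2 did not pass the filter on reads. Both comparisons share the Ctrl embryos, and summed markers of choroid plexus and hem were higher in both mutants, a part that was not tested.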
